A study of Mus musculus with 2 samples.

Results

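The 29 genes described here build the synaptonemal complex or carry out meiotic recombination in the male germline. They were taken by symbol from a fixed list, and all 29 were found among the 32285 genes of the deposited count tables. Captured transcripts were counted as UMIs (molecular tags that make each molecule count once) in single cells of whole dissociated mouse testis, with a droplet 3′ kit, in 1 library per genotype. The control genotype was Dot1L fl/+; Cre-, and the other was Dot1L fl/delta; Ddx4-Cre+, called Dot1L cKO. Both genotypes carried a floxed Dot1L allele, and only the cKO carried a delta allele and the Cre. The Ddx4 promoter drives the Cre in germ cells, while somatic cells of the cKO keep 1 delta allele by the genotype label. Ages and the number of animals per library are not given in the sources used here.

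In meiotic prophase, SPO11 and its partners cut the DNA of the chromosomes, and the breaks are repaired on the homologous chromosome by strand exchange. Chromatin loops are meanwhile anchored on an axis of SYCP2, SYCP3, HORMA domain proteins and cohesin. SYCP1 then joins the axes of the homologues like the teeth of a zip, with SYCE1, SYCE3 and TEX12 in the central element. The homologues find each other while their telomeres are held at the nuclear envelope by MAJIN, TERB1, TERB2 and SUN1. A few of the exchanges become crossovers, through MSH4, MSH5, the RING proteins RNF212 and CCNB1IP1 (HEI10), and MLH3. DOT1L, the enzyme deleted in the cKO, is a methyltransferase of histone H3 whose mark lies over transcribed genes.

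Promoter sequences are given first for 4 members with early or late peaks. Hormad1, Msh5 and Tex12 were highest in early spermatocyte clusters and share the word GGCGGGAA upstream of their starts, while Syce1 had the latest peak of all 29. Sycp1, Sycp2, Sycp3 and Hfm1 were also highest in early clusters and lack the word, so it does not mark early peaks. Each line gives the 250 bases before the RefSeq start, 5′ to 3′ on the gene's strand, from RefSeq on GRCm38.p6. Capitals mark a match to GGCGGGAA, a word of the kind bound by E2F proteins, or to CNCCTCAG on either strand, a word of the kind bound by STRA8. 
Hormad1, chr3:95559427-95559676, plus strand: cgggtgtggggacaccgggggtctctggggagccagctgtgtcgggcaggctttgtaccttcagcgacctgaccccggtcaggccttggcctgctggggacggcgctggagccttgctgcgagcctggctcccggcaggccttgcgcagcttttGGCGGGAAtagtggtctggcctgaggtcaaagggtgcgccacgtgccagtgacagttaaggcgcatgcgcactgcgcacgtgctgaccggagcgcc
Msh5, chr17:35046623-35046872, minus strand: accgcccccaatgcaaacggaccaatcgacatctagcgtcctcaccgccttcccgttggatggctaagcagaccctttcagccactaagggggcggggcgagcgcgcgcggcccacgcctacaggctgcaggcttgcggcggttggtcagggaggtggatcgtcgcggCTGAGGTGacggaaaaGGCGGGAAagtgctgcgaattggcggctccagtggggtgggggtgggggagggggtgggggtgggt
Tex12, chr9:50561269-50561518, minus strand: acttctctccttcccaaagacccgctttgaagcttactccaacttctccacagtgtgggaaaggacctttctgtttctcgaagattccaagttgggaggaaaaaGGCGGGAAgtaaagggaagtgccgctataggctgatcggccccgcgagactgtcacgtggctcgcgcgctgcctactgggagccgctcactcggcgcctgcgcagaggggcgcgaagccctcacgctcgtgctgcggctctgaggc
Syce1, chr7:140787855-140788104, minus strand: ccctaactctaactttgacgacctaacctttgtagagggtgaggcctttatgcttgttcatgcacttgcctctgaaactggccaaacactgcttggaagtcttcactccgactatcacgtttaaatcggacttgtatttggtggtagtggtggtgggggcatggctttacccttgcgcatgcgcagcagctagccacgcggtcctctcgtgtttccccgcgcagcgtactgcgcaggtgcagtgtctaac
The upstream stretches of Hormad1 and Tex12 hold 1 of these words, that of Msh5 holds both, and that of Syce1 holds none of them.

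RefSeq promoters (250 bases before to 50 after a start) were matched for 24 of the 29 members. GGCGGGAA was found on either strand in 5 of these 24 (Hormad1, Msh5, Rnf212, Spata22, Tex12), against 2.19% of all 32851 promoters in the table. CNCCTCAG was found in 6 (Hfm1, Hormad2, Msh5, Sun1, Sycp1, Tex12), against 7.94% of all promoters, and the match in Tex12 runs over the start and so is not in capitals above. The shorter CCTCAG, which every CNCCTCAG contains, was found in 11, against 26.8%. AACNGNC, a core of MYB-type words, was in 13 of 24 members and in 32.8% of all promoters, and its partly overlapping form AACNGTT was in 2, against 4.45%. The other words searched were TTTCCCGC, which overlaps the reverse of GGCGGGAA (3 members, 1.07% of all), the CRE word TGACGTCA (1 member, 1.79%) and the RFX-type word GTTGCNNNG (3 members, 13.5%). These 8 words were chosen with the levels known, and a match is a description of the letters only. Of the 28 starts of these members, 25 were found in a GENCODE transcript, and the start of Syce1 was not.

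The control library held 17408 barcodes with a median of 2383.5 UMIs and the cKO library 20601 with a median of 2188. After filters on depth, mitochondrial UMIs and doublets, 14605 and 16756 cells were kept, and 102 barcodes occurred in both libraries, 67 of them among kept cells. Cells were clustered without the 29 members, the other meiotic genes or Dot1l, and clusters were placed in order by germ cell markers that are not members. This gave 1 spermatogonium-like cluster, 7 spermatocyte clusters, 5 round and 7 elongating spermatid-like clusters and 4 somatic clusters, and 13 of the 37 clusters stayed out of these classes because they were unnamed or low in RNA. They held 54.5% of control and 60.5% of cKO cells. Levels are given as CPM, counts per 1000000, here the UMIs of a gene scaled to the UMIs of all genes in the cells of a cluster. With 1 library per genotype no test was possible: every difference below is between 2 libraries, and the 95% intervals, in parentheses, cover counting error only. Intervals of a median over genes are the exception, and they treat genes as draws.

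The spermatocyte clusters are called by number, from 1 to 7. Cluster 1 was highest in the leptotene markers Prdm9 and Stra8 (174 and 397 CPM over both libraries). Clusters 2 and 3 were high in Gml (792 and 416 CPM), and cluster 3 was also highest in the pachytene marker Piwil1, at 845 CPM, followed by cluster 4 at 644 CPM. Since markers of a neighbouring stage were among the leading genes of clusters 2 and 3, these carry no stage name. Cluster 5 was highest in Pou5f2 (244 CPM), cluster 6 in Ccna1 and Aurka (290 and 385 CPM), and in cluster 7 the acrosomal gene Acrv1 appeared at 185 CPM. Every spermatocyte cluster held 102 or more cells of each library. Sums are given for the early clusters 1 and 2 (309 control and 607 cKO cells), the middle clusters 3 and 4 (515 and 689) and the late clusters 5 to 7 (1140 and 1059). Somatic clusters, used as a level for cells that should lack meiotic RNA, held only 23 control cells but 302 cKO cells.

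The targeted gene was checked first. Dot1l stood at 59.2 CPM in control and 34.3 in cKO spermatogonium-like cells, and at 55.0 and 56.9 in cluster 3, where the counting intervals overlapped. It was also lower in cKO spermatogonium-like cells and cluster 1 (log2 ratios of cKO over control −0.79 and −0.53). The gap was wider in clusters 5, 6 and 7, with log2 ratios of −1.18, −1.84 and −2.75. In round spermatid-like cells Dot1l was at 40.7 CPM in the control and 4.79 in the cKO, a log2 ratio of −3.09. The widest gaps were thus in late spermatocytes and round spermatid-like cells. Which part of Dot1l the deletion removes is not given in the sources used here, so counts at its 3′ end do not show how much functional transcript was left.

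Most of the 29 genes were highest in the earliest spermatocytes. Their summed UMIs made up 0.278% of all UMIs in control spermatogonium-like cells, 1.20% in cluster 1 and 1.23% in cluster 2, then 0.701% in cluster 3, 0.314% in cluster 4 and 0.174% in cluster 7. The cKO library gave 0.310%, 1.18%, 1.21%, 0.654%, 0.315% and 0.176% in the same clusters. In the control 16 of 29 members peaked in cluster 1, 4 in cluster 2, 3 in cluster 3, 1 each in clusters 4 and 6, and 4 in the spermatogonium-like cluster. The peak lay in the same cluster in both libraries for 25 members and within 1 cluster for 27.

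**Figure D1:**
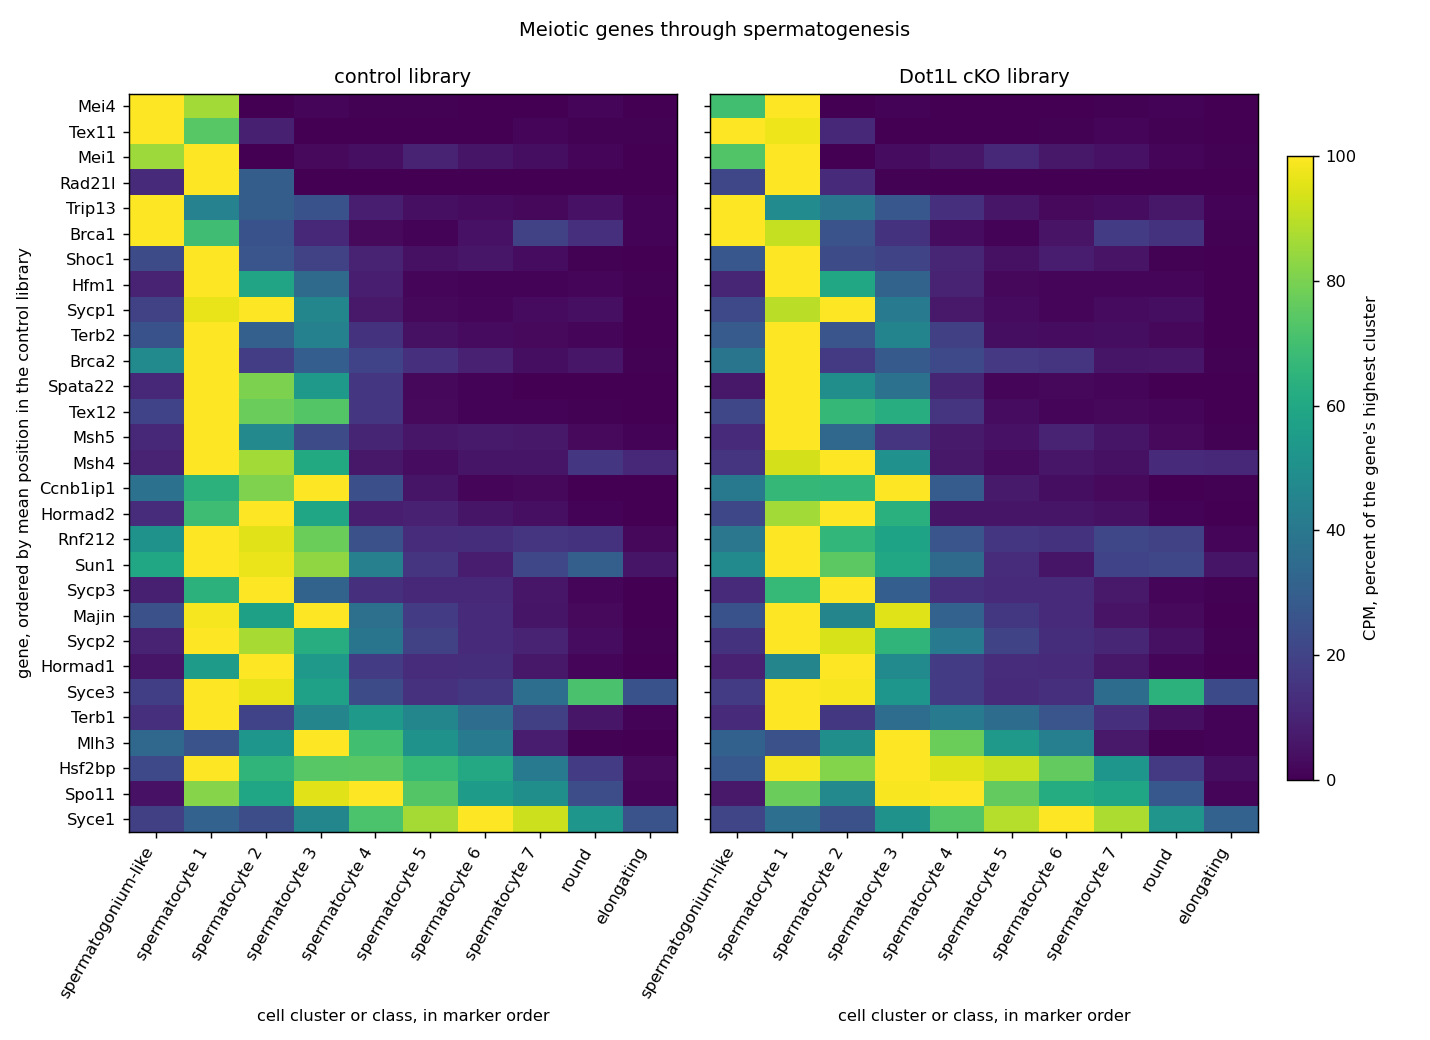
CPM of each of the 29 genes (rows) as percent of that gene's highest cluster in the same library, across the spermatogonium-like cluster, spermatocyte clusters 1 to 7 and the round and elongating spermatid-like classes (columns), for the control (left) and Dot1L cKO library (right). Most rows are brightest in clusters 1 and 2, Syce1 is brightest in cluster 6, and Syce3 is bright again in round spermatid-like cells.

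Break formation genes lay at both ends of the order. By mean position in the cluster order, Mei4 was the earliest member in both libraries, followed by Tex11. Mei1, which like Mei4 is needed for programmed breaks, came next in the control and after Rad21l in the cKO. Mei4 was at 70.1 CPM in control and 55.4 in cKO spermatogonium-like cells, at 60.4 and 79.5 in cluster 1, and without a UMI in cluster 2 of either library. Mei1 was at 99.0 and 80.8 CPM in cluster 1 and likewise without a UMI in cluster 2. The count of 0 rests on 102 control and 172 cKO cells, in which 3 counts would be 3.62 and 2.39 CPM. Spo11, whose product makes the cut, was at 6.65 and 11.8 CPM in spermatogonium-like cells, 114 and 131 in cluster 1, and highest in cluster 4, at 139 (132 to 146) and 170 (162 to 177) CPM. In cluster 4 it was thus at 1.22 times its cluster 1 level in the control and 1.30 times in the cKO, while Mei1 and Mei4 were at 4.92 CPM or less. The 3′ counts do not separate Spo11 splice forms.

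Axis genes peaked in clusters 1 and 2. Sycp3, a filament protein of the axis, rose from 298 CPM in control and 418 in cKO spermatogonium-like cells to 2152 and 2275 in cluster 1 and 3343 and 3402 in cluster 2. Hormad1, a HORMA domain protein that marks unpaired axes, took the same course, with 1916 CPM in control and 1748 in cKO cluster 2. Sycp2, the partner of SYCP3, peaked a cluster earlier, at 1647 and 1501 CPM in cluster 1. All 3 then fell gradually and were still at 126 to 206 CPM in control cluster 7. Hormad2 peaked in cluster 2 (464 and 340 CPM) and dropped more steeply, to 38.3 and 19.2 CPM in cluster 4. Rad21l, a meiosis-specific cohesin subunit, had the shortest window of the axis genes: 61.3 and 73.7 CPM in cluster 1, 18.1 and 8.76 in cluster 2, and 0.381 CPM or less from cluster 3 to cluster 7 in both libraries.

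The genes of the zip itself did not run in parallel. Sycp1, the transverse filament, was at 2690.2 CPM in control and 2616 in cKO cluster 1 and at 2786 and 2923 in cluster 2, then fell to 189 and 204 in cluster 4. Tex12 peaked in cluster 1 (501 and 644 CPM) and was at 79.4 and 96.7 in cluster 4. Syce3 was also highest in cluster 1 among spermatocytes, at 541 and 408 CPM, and lowest in cluster 5, at 77.2 and 50.4. Syce1 rose almost throughout prophase, from 224 and 273 CPM in cluster 1 through 325 and 381 in cluster 3 to 711 and 747 in cluster 6. So in cluster 6 Syce1 was at its peak while Sycp1, with which its product is assembled, was at 44.4 and 54.4 CPM, 1.59% and 1.86% of its own peak.

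Crossover genes were spread over clusters 1 to 3. Tex11, an X-linked gene whose product joins the crossover pathway, went from 275 CPM in control and 287 in cKO spermatogonium-like cells to 204 and 279 in cluster 1 and 0.346 and 0.858 in cluster 3. Shoc1, Hfm1 and Msh5 followed with peaks in cluster 1: Hfm1, a helicase, was at 482 and 448 CPM there and at 40.5 and 43.8 in cluster 4. Shoc1, an XPF-like protein, was at 205 and 173 CPM in cluster 1, and Msh5, a clamp around the exchange, at 125 and 149. Rnf212 peaked there too, at 56.9 and 71.0 CPM. Msh4, which pairs with MSH5, was at 77.1 and 82.6 CPM in cluster 1 and 66.4 and 88.4 in cluster 2, and its peak cluster differed between the libraries by 1 with overlapping intervals. Ccnb1ip1 and Mlh3 had the latest peaks of this role, in cluster 3 of both libraries. Ccnb1ip1 was at 74.8 and 78.2 CPM there. Mlh3, a subunit of the nuclease that resolves crossovers, was at 35.0 and 33.2 CPM in cluster 1 and 138 and 133 in cluster 3, and still at 56.2 and 57.4 in cluster 6.

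Repair and telomere genes differed in where they began. Brca1, a repair gene also used in mitotic cells, was highest in spermatogonium-like cells (124 and 107 CPM) and at 1.21 and 1.004 CPM in cluster 5. Trip13, which removes HORMA proteins from synapsed axes, was at 98.5 and 101 CPM in spermatogonium-like cells and 43.8 and 49.0 in cluster 1. Brca2 peaked in cluster 1 at 409 and 455 CPM, and its meiotic partner Hsf2bp (BRCA2 localiser) stayed between 60.5% and 100% of its peak from cluster 1 to cluster 6 in the control. Spata22 peaked in cluster 1, at 58.7 and 72.8 CPM. Terb1, Terb2 and Sun1 peaked in cluster 1 in both libraries, Terb2 at 138 and 112 CPM and Sun1 at 92.0 and 117. Terb1 had a second, lower maximum: it was at 200 and 237 CPM in cluster 1, 39.8 and 38.2 in cluster 2, and 108 and 98.7 in cluster 4. Majin was bimodal too, with 119 and 100 CPM in cluster 1, 68.8 and 45.4 in cluster 2 and 121 and 95.2 in cluster 3, so its peak cluster differed between the libraries while its profile had the same shape.

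Most of this RNA was low in round spermatid-like cells, with a few exceptions. The median member stood at 2.34% of its highest spermatocyte cluster in the control and 2.48% in the cKO, and 18 members were under 5% in both libraries. Somatic cells gave a median of 0% from 23 control cells and 2.21% from 302 cKO cells, so the cKO median in round spermatid-like cells was close to that in cells that should lack these RNAs. Per cell, 14 members in the control and 20 in the cKO were above the somatic level with intervals that did not overlap. Round cells were also deeper, with medians of 20988.5 UMIs against 8084 in the control and 20056 against 2969 in the cKO. The share of all genes passing was not counted. Among the 20, some were lower in round than in somatic cKO cells by CPM. These were Sun1 (24.9 and 30.3), Msh5 (3.68 and 5.91), Hormad2 (2.88 and 4.43) and Trip13 (6.60 and 6.65). The 4 members at 20% or more of their highest spermatocyte cluster in both libraries were Syce3 (71.3% and 64.4%), Syce1 (52.5% and 52.0%), Sun1 (30.3% and 21.3%) and Spo11 (23.5% and 27.6%). At the other end Rad21l had no UMI among 1534 control and 1306 cKO round spermatid-like cells. The structural genes Sycp1, Sycp2 and Sycp3 were at 3.97%, 3.41% and 1.40% in the control. Sycp3, for example, was at 46.8 CPM in round spermatid-like cells of the control and 49.4 in those of the cKO.

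Most levels beyond the round stage were lower still. In elongating spermatid-like cells the median member was at 0.435% of its spermatocyte peak in the control and 0.544% in the cKO, with Syce1 highest in both (25.8% and 31.3%). Per cell, 26 of 29 members had more UMIs in round than in elongating spermatid-like cells in each library, with intervals that did not overlap. Round cells were also deeper, with a median of 20988.5 UMIs against 8310.5 in the control and 20056 against 7585.5 in the cKO. The share of all genes passing this was not counted. By CPM, Msh4 was nearly level in the cKO (10.8 and 10.1). Mlh3 (0.770 and 1.15) and Ccnb1ip1 (0.301 and 0.413) were higher in cKO elongating cells, from 9 to 25 UMIs. Somatic cells, which should lack most of these RNAs, had 34 member UMIs in all in the control and 460 in the cKO, with 16 and 2 members at 0. Free RNA, estimated from spermatid markers found in somatic cells, amounted to 1028 and 910 UMIs per cell, or 4.21% and 3.98% of the UMIs of a round spermatid-like cell and 16.1% and 15.9% of those of an early spermatocyte. With this free RNA subtracted, the median member in round spermatid-like cells went from 2.98% to 2.37% of its highest spermatocyte sum (early, middle or late) in the control and from 3.12% to 2.11% in the cKO. Mlh3 and Ccnb1ip1 then stood at 0 in both libraries and Spata22 at 0 in the control, while Tex12 went from 0.679% to 0.259% and Sycp3 from 1.77% to 1.23% in the control. Syce3, Syce1, Sun1 and Spo11 stayed at 67.2%, 56.1%, 27.4% and 23.0% in the control and at 59.1%, 56.5%, 20.6% and 26.7% in the cKO. Against these sums they were not the only members at 20% or more. Brca1 was at 27.1% in the control and 21.8% in the cKO, and at 24.1% and 19.1% after subtraction. Before subtraction Hsf2bp passed 20% in the control only (20.3%) and Rnf212 in the cKO only (21.9%).

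**Figure D2:**
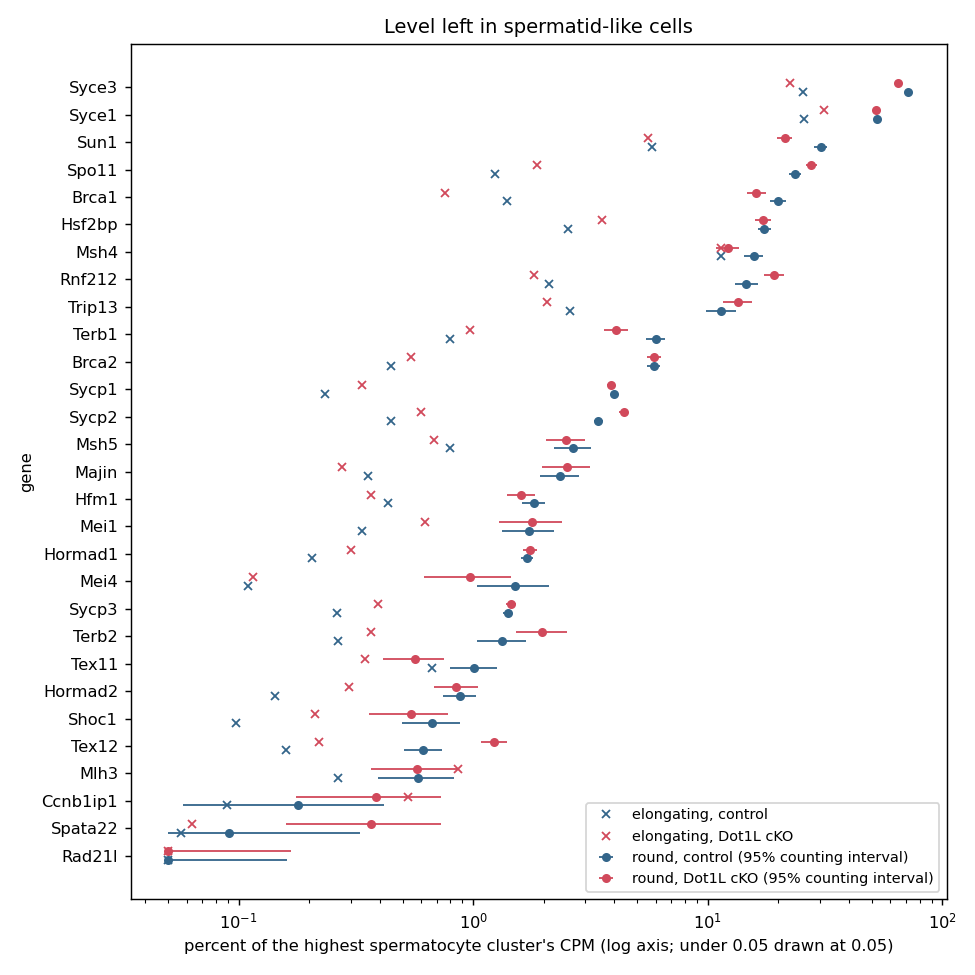
CPM in round spermatid-like cells (points, with 95% counting intervals) and elongating spermatid-like cells (crosses) as percent of each gene's highest spermatocyte cluster, on a log axis, for the 29 genes in the control (blue) and Dot1L cKO library (red). Syce3, Syce1, Sun1 and Spo11 lie at 20% or more in round spermatid-like cells of both libraries, and 18 genes lie under 5% in both.

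The round spermatid level was compared with that of the lowest of clusters 3 to 7 after the peak. A level above it beyond counting error, by CPM and per cell, in both libraries, is called a second rise here. The 7 members with one were Sycp1, Syce3, Msh4, Mei4, Brca1, Sun1 and Trip13. Tex11, Brca2 and Hfm1 also lay above in both libraries, but beyond counting error by both measures only in the control. By CPM their folds were 10.5, 1.67 and 2.02 in the control and 6.79, 1.03 and 1.05 in the cKO. Because the lowest cluster was picked for being lowest, the folds lean upward. How many of all genes pass this rule was not counted, so the 7 show no trait of meiotic genes. Syce3 rose from its low point in cluster 5 through 196 and 144 CPM in cluster 7 to 386 CPM in control and 262 in cKO round spermatid-like cells, 5.00 and 5.21 times the low point. With each cell thinned to 5000 UMIs, Syce3 was seen in 34.8% (28.3% to 41.8%) of control cells of cluster 5 and in 84.5% (82.6% to 86.3%) of round spermatid-like cells, and in 25.4% and 73.7% in the cKO. Unthinned shares were 98.0% and 99.5% in the control and 88.6% and 97.6% in the cKO. Among cKO somatic cells of that depth, 8 of 84 held a Syce3 UMI, 9.52% (4.20% to 17.9%), where the median depth was 2969 UMIs against 20056 in cKO round spermatid-like cells before thinning.

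Brca1 had a steep second rise, 14.1 and 15.6 times its low point by CPM and 5.65 and 6.77 times per cell. It went from 1.21 CPM in control and 1.004 in cKO cluster 5 to 6.04 and 5.69 in cluster 6, 23.9 and 18.8 in cluster 7, and 17.0 and 15.6 in round spermatid-like cells, then to 1.20 and 0.734 in elongating ones. Sun1, an inner nuclear membrane protein also found in somatic cells, went from 7.52 and 6.83 CPM in cluster 6 to 27.9 and 24.9 in round spermatid-like cells. Sun1 was also at 30.3 CPM in cKO somatic cells, so it is no marker of meiosis. Mei4 rested on few counts, with 34 UMIs in control and 23 in cKO round spermatid-like cells.

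The spermatid clusters were split almost wholly by library, and the second rises can be followed within each. Control round spermatid-like cells lay in clusters of 667, 485 and 381 control cells, in marker order, and cKO cells in clusters of 890 and 401. Msh4 was at 3.51, 9.32 and 27.1 CPM in the 3 control clusters and at 3.82 and 22.9 in the cKO ones, highest in the last cluster of each. Trip13 had the same course, at 1.76, 4.53 and 10.0 CPM in the control clusters and 4.94 and 9.51 in the cKO ones. Brca1 ran the other way in both libraries, at 21.7, 14.9 and 12.9 CPM in the control and 20.01 and 7.76 in the cKO. Spo11 also ended within the round stage, at 52.7, 30.9 and 6.84 CPM in the control and 67.6 and 10.8 in the cKO. Sycp1 was likewise lowest in the last cluster, at 57.5 CPM in the control and 75.1 in the cKO. The other 3 genes with a second rise did not show 1 course in both libraries. Sun1 was highest in the middle control cluster (23.9, 36.3 and 24.0 CPM) and in the first cKO cluster (27.1 and 20.7). Syce3 was at 387, 410 and 358 CPM in the control and at 267 and 256 in the cKO. Mei4 had 9, 22 and 3 UMIs in the control and 18 and 4 in the cKO.

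The comparison of the cKO with the control library addressed whether meiotic genes change where DOT1L is deleted in germ cells. In the sums of the early and of the middle spermatocyte clusters no measured member differed by over 1.5-fold, though many smaller differences were beyond counting error. Within single clusters some did: Majin was lower in cluster 2, and in cluster 4 Trip13 was higher and Syce3 and Hormad2 were lower. In the spermatogonium-like cluster 2 of 27 measured members were over 1.5-fold higher, Rad21l (log2 ratio 1.12) and Msh4 (0.91), and 0 were lower. The share of all genes past 1.5-fold in that cluster is not given here. All 5 axis genes were higher there, with a median log2 ratio of 0.49 against −0.01 for all genes. Their median was below 0 in each of clusters 1 to 7. A gene counts as measured where the libraries together held at least 50 of its UMIs, and differences of over 1.5-fold are counted as a rule of size. In the early clusters none of 29 measured members was over 1.5-fold higher or lower, where 9.02% of all 9167 measured genes were higher and 3.69% lower. In the middle clusters none of the 26 measured members was, where 8.79% of 13078 genes were higher and 3.23% lower. The median log2 ratio of members was 0.14 (−0.14 to 0.22, the spread over genes) in the early and −0.02 (−0.14 to 0.15) in the middle clusters, against 0.01 and 0.02 for all genes. Members ranged from −0.39 to 0.57 in the early and from −0.58 to 0.38 in the middle clusters, and the counting intervals of 11 of 29 and 15 of 26 excluded 0. How many of all genes had such intervals was not counted, so these counts show no trait of the members. For example, Sycp1 was at 690 CPM in control and 675 in cKO middle clusters and Sycp3 at 730 and 726.

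Late spermatocytes differed more, among members as among all genes. Of 27 measured members 6 were over 1.5-fold higher in the cKO and 1 was lower, with 15.1% of all 14874 genes higher and 5.05% lower. The 6 were Tex12, Spata22, Brca2, Trip13, Rnf212 and Ccnb1ip1, and the 1 was Hormad2. The median member had a log2 ratio of 0.09, against 0.07 for all genes. In round spermatid-like cells 2 of 26 measured members were over 1.5-fold higher, Tex12 and Rnf212, and none was lower, with 17.3% of 15652 genes higher and 7.07% lower. The median there was −0.11 (−0.25 to 0.14) against 0.08, and it was 0.02 with cells classed by marker score and 0.03 with a minimum of 200 UMIs. Of 19 members measured in elongating spermatid-like cells 3 were higher (Sycp3, Tex12 and Spo11) and 2 lower (Syce3 and Brca1), with 29.2% of 11127 genes higher and 5.63% lower. The round and elongating values compare different clusters, since the clusters were almost wholly of 1 library each.

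**Figure D3:**
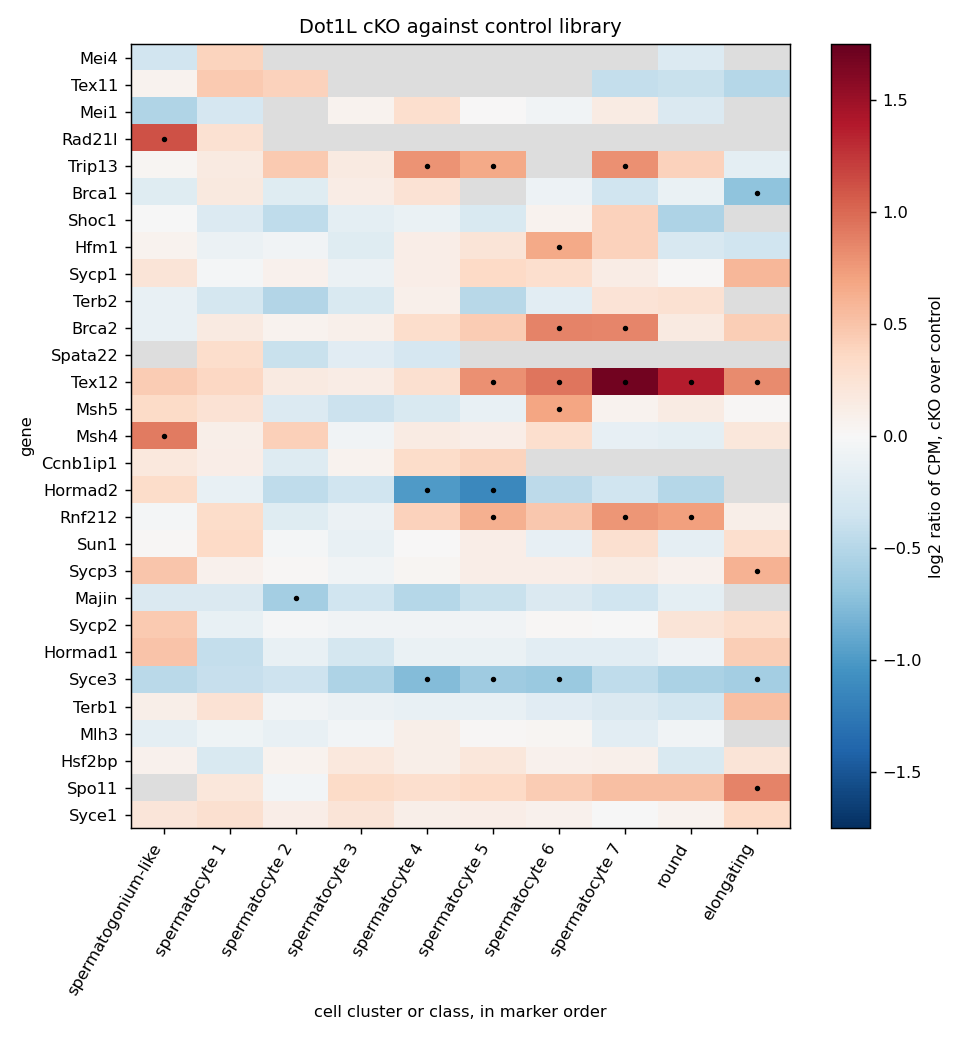
Log2 ratio of CPM, Dot1L cKO over control, for the 29 genes (rows, in the order of the stage profiles) in the spermatogonium-like cluster, spermatocyte clusters 1 to 7 and spermatid-like classes (columns). Grey marks fewer than 50 UMIs over both libraries and a dot marks over 1.5-fold: Tex12 is red in every column and Syce3 blue in every column, and most other fields are pale.

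Tex12 was higher in the cKO at each of the 10 stages, although the interval in cluster 2 included 0 (0.15, −0.05 to 0.36). Its gene lies at chr9:50556819-50561325 (GRCm38, minus strand). It was at 501 and 644 CPM in cluster 1, a log2 ratio of 0.36, and at 79.4 and 96.7 in cluster 4, a ratio of 0.28. In cluster 7 it was at 3.97 CPM in the control (47 UMIs) and 12.8 in the cKO (125 UMIs), a log2 ratio of 1.69 (1.19 to 2.20). In round spermatid-like cells it was at 3.07 and 7.94 CPM, 2.58-fold higher in the cKO (log2 ratio 1.37, 1.04 to 1.70). In elongating spermatid-like cells it was at 0.798 and 1.42 CPM, from 24 and 31 UMIs (0.83, 0.02 to 1.67). The log2 ratio thus lay between 0.13 and 0.45 up to cluster 4 and between 0.80 and 1.69 from cluster 5 on, where no level was above 22.3 CPM. Il18 overlaps Tex12 on the opposite strand, and whether counting used strand is not given in the sources used here. Il18 was higher in the cKO where Tex12 differed most: its log2 ratio was 0.00 in the early, 0.48 in the middle and 1.07 in the late clusters and 1.22 in round spermatid-like cells, where it had 98 control and 182 cKO UMIs. Its part in the Tex12 counts was not tested.

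Syce3 went the other way. This gene (chr15:89390174-89410503, minus strand) was lower in the cKO at all 10 stages, with log2 ratios between −0.75 and −0.37. It was at 533 CPM in control and 407 in cKO early clusters, 209 and 140 in middle clusters, 123 and 84.0 in late clusters, and 386 and 262 in round spermatid-like cells. The log2 ratios were −0.39 (−0.51 to −0.28), −0.58 (−0.65 to −0.51), −0.55 (−0.62 to −0.48) and −0.56 (−0.60 to −0.52). The gap was widest in cluster 4 (−0.75, −0.88 to −0.63) and narrowest in cluster 2 (−0.37, −0.56 to −0.18), and it was over 1.5-fold in clusters 4 to 6 and in elongating spermatid-like cells. Its central element partner Syce1 differed little, with log2 ratios of 0.14 in the middle clusters, 0.05 in the late clusters and 0.06 in round spermatid-like cells. Majin was lower in the cKO at 9 of 9 stages where it was measured, with log2 ratios between −0.60 and −0.17.

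Hormad2 was lower in the middle of prophase. This gene (chr11:4345814-4441105, minus strand) was at 320 and 293 CPM in cluster 1, a log2 ratio of −0.13, then at 38.3 and 19.2 in cluster 4 and 43.0 and 19.7 in cluster 5. The ratios in clusters 4 and 5 were −0.99 (−1.24 to −0.75) and −1.13 (−1.35 to −0.91), and in cluster 7 −0.35 (−0.66 to −0.04). With each cell weighted alike the late value was −0.41 instead of −0.75. Its paralogue Hormad1 had −0.11 and −0.12 in clusters 4 and 5. The 2 HORMA genes therefore differed in size of change, by values whose counting intervals do not overlap.

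**Figure D4:**
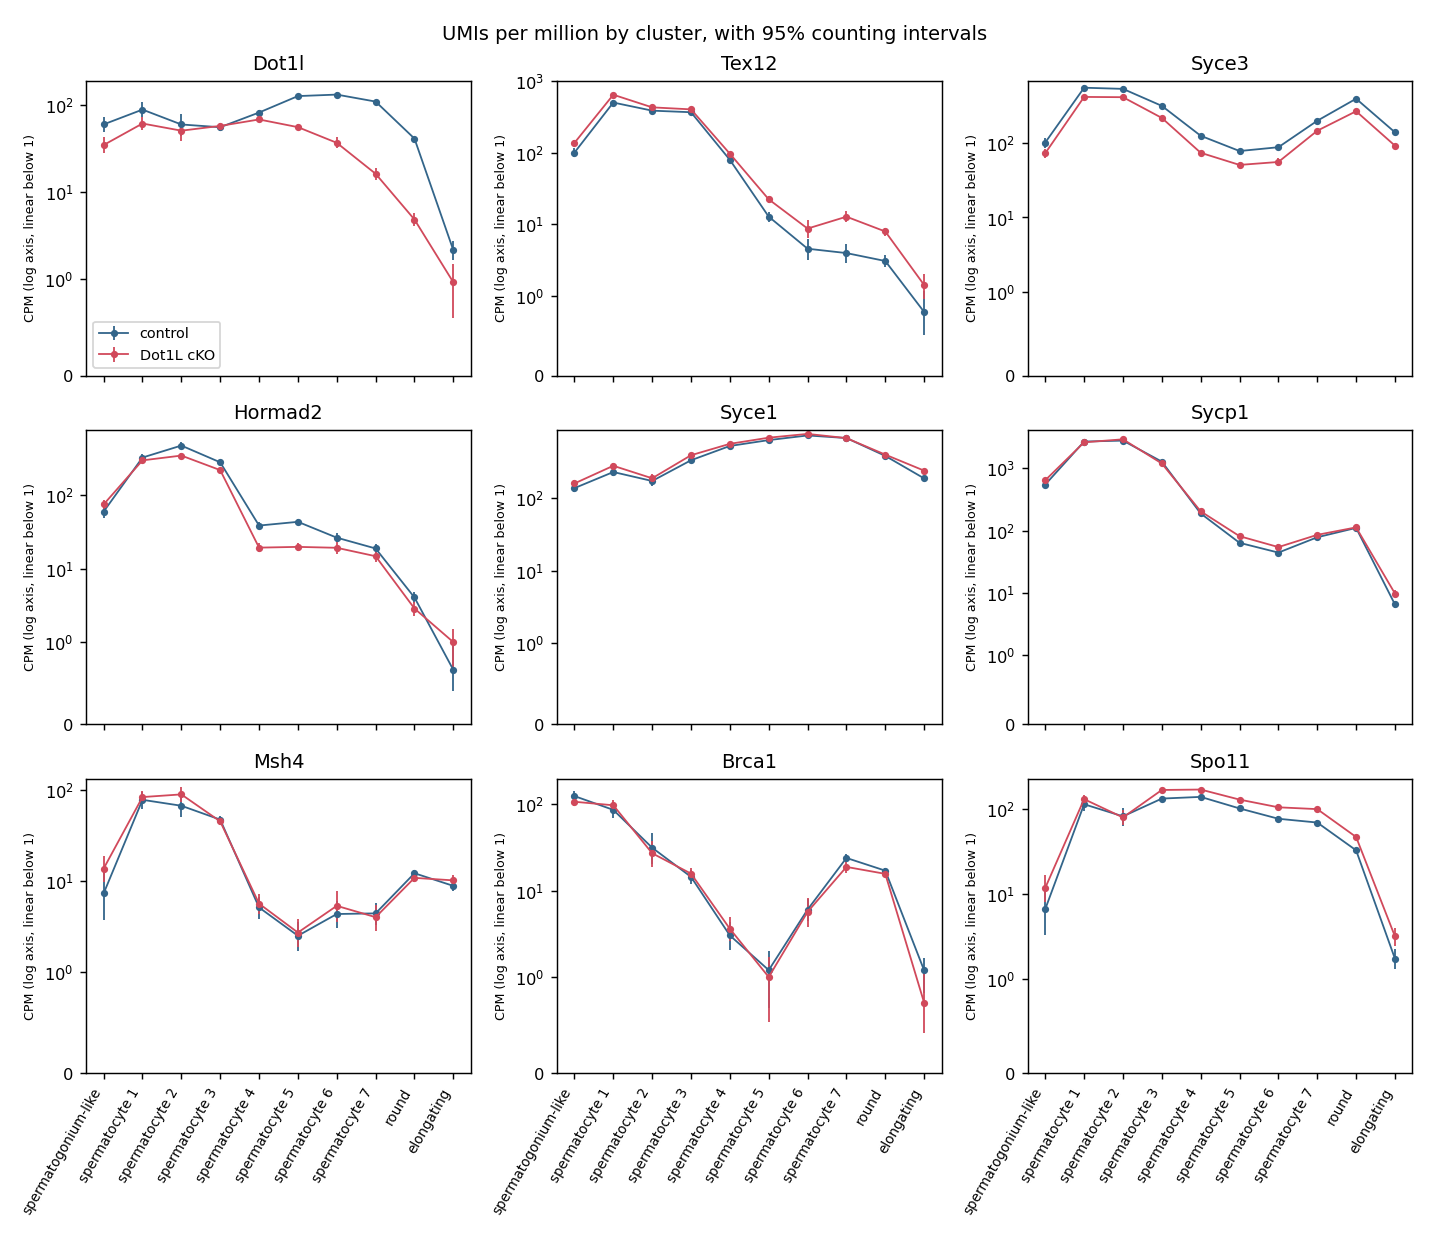
CPM, on an axis that is logarithmic above 1 and linear below, of Dot1l and 8 of the 29 genes from the spermatogonium-like cluster through spermatocyte clusters 1 to 7 to round and elongating spermatid-like cells, in the control (blue) and Dot1L cKO library (red), with 95% counting intervals. Dot1l falls away in the cKO from cluster 5 on, Syce3 runs below the control throughout, Tex12 runs above it, and Syce3, Sycp1, Msh4 and Brca1 turn up again before or in round spermatid-like cells.

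The other members over 1.5-fold higher in late spermatocytes ranged from 21 to 1593 UMIs per library there. Rnf212, a RING protein that stabilises crossover sites, was at 7.90 CPM in control and 12.4 in cKO late clusters (log2 ratio 0.65, 0.41 to 0.89) and at 8.31 and 13.6 in round spermatid-like cells (0.71, 0.50 to 0.93). In the early and middle clusters its log2 ratios were 0.16 and 0.08. Brca2 was at 35.9 and 56.9 CPM in late clusters (0.66, 0.55 to 0.77), with ratios of 0.25 and 0.20 in early and middle clusters and 0.16 in round spermatid-like cells. Trip13 was at 2.90 and 4.57 CPM in late clusters (0.66, 0.26 to 1.06), with ratios of 0.79 (0.40 to 1.19) in cluster 4 and 0.80 (−0.01 to 1.63) in cluster 7. Ccnb1ip1 had 81 control and 106 cKO UMIs in late clusters (0.60, 0.17 to 1.03). Spata22, whose product binds single-stranded DNA with MEIOB, had 21 and 31 UMIs, and its interval included 0 (0.77, −0.07 to 1.64). It also shares 31.0% of its 3′ end with the overlapping gene Gm49340, so its counts are uncertain.

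Spo11 stayed under 1.5-fold in each spermatocyte cluster but was higher in the cKO at 8 of 9 stages. It was at 83.6 CPM in control and 114 in cKO late clusters (log2 ratio 0.45, 0.38 to 0.53) and at 32.7 and 46.9 in round spermatid-like cells (0.52, 0.41 to 0.63). In elongating spermatid-like cells it was over 1.5-fold higher, at 1.73 and 3.17 CPM from 52 and 69 UMIs (0.87, 0.33 to 1.42). Of the other break formation genes, Mei1 had ratios of 0.09 in late clusters and −0.25 in round spermatid-like cells. By role, the axis genes had a median log2 ratio of −0.05 in late clusters, the zip genes 0.16, the crossover genes 0.10, the repair and checkpoint genes 0.66 and the telomere genes −0.14. The repair value rests on 5 genes, 3 of them among the 6 above, and all genes had 0.07.

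Overlapping genes limit a few other values. Chpt1 overlaps Sycp3 on the opposite strand and had a log2 ratio of 0.97 in round spermatid-like cells, where Sycp3 had 0.08. The antisense neighbour of Sun1, 4930520M14Rik, had −2.59 in round spermatid-like cells (507 control and 67 cKO UMIs) and Sun1 −0.16. Rrp1b, opposite Hsf2bp, had −0.55, and Hsf2bp was lower too, at 25.9 CPM in control and 21.5 in cKO round spermatid-like cells. In each of these pairs the member had the sign of its neighbour but a smaller ratio. The antisense neighbours of Rnf212 and Brca2 had −0.06 and −0.20 there, while both members were higher in the cKO. The neighbour of Sun1 went from 0.278 CPM in late to 13.6 in round control cells, and from 0 to 2.24 in the cKO. Its part in the Sun1 counts was not tested. No member shared 50% or more of its 3′ end with another gene.

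Of 35 further meiotic genes listed beside the members, 34 were found. Of these, 1 of 31 measured genes was over 1.5-fold higher and 1 lower in the early clusters, 1 and 1 of 33 in the middle, 3 and 1 of 34 in the late clusters and 5 and 2 of 33 in round spermatid-like cells. Rec114, a partner of MEI4 in break formation, was at 13.7 CPM in control and 24.98 in cKO early clusters (log2 ratio 0.87) and 2.01 and 3.58 in middle clusters (0.83). Rnf212b was at 17.8 and 10.7 CPM in middle clusters, a log2 ratio of −0.73, opposite in sign to the late value of its relative Rnf212. In round spermatid-like cells the largest ratio was that of 4930447C04Rik (Six6os1, a central element gene), at 2.38 and 6.30 CPM (1.40, 1.03 to 1.78), followed by the checkpoint kinase gene Atm at 1.12 and 2.41 (1.10). Dmc1, the meiotic strand exchange protein, had 0.91 there and Ccdc36 (Iho1) −0.72.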

How the data were processed

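Whole testis of 1 control and 1 Dot1L cKO library was analysed from the deposited raw UMI counts, one matrix a library. Per the file headers they were produced by Cell Ranger 7.0.0. Build mm10 and Seurat 4.1.0 are named in the submitters' processing notes. Whether introns or strand were used in counting is not given in the sources used here. The 29 members, the other lists and the markers were chosen with earlier results of these data known.

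Barcodes needed at least 500 UMIs and 300 genes, and no more than 10% of UMIs from mitochondrial genes. Doublets called against 2 simulated doublets per cell were removed, 8.13% of control and 9.19% of cKO cells, although only 47.7% and 53.8% of simulated doublets were caught. Clusters came from 2000 variable genes without the members, 30 principal components, 20 neighbours and Leiden resolution 1.5 (leidenalg 0.10.2), with no integration. They were named from fixed marker lists, and the naming thresholds and the resolution were set after clusters were seen. Low-RNA clusters had a median depth under a set part of their class. Rebuilt classes may differ from those of the study.

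UMIs were summed per cluster and library and scaled to CPM. Intervals are exact Poisson, conditional binomial for ratios and Clopper-Pearson for shares. They cover counting error at totals of 155487418 control and 156518838 cKO UMIs before filters. Those of medians over genes come from the ranks of the genes, which are not replicates. All 29 members are accounted for, and up to 4 other meiotic genes per class with the largest ratio could be named. The text gives part of these, and 1 is not reported here. The ratio was tested on simulated counts for the middle spermatocyte clusters: of 13077 genes, 195 carried a known 2-fold change and 99.0% of these came out over 1.5-fold, against 1.57% of unchanged genes. Promoters are RefSeq on GRCm38.p6 and gene positions GENCODE vM21. Classes, filters, doublets, free RNA, scaling, the UMI minimum, weights and thinning depth were varied.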

Additional observations from a re-analysis of the deposited data

How the results depend on the processing

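With 1 library per genotype, no replicate could be left out. No paired analysis was possible because the labels carry no replicate numbers. Across the settings run, the 4 median ratios (early, middle, late, round), the median spermatid levels and the counts of members highest in early clusters stayed within their spread. The round spermatid median changed sign, from −0.11 to 0.02 with cells classed by marker score and to 0.03 with a minimum of 200 UMIs, and no other value did. Counts of members over 1.5-fold moved. With cells classed by marker score, 1 member was higher in early clusters instead of 0, 3 instead of 6 in late clusters, and 1 instead of 0 was lower in round spermatids. The late count of 6 was also 4 with median-of-ratios scaling, with a minimum of 200 UMIs and with equal cluster weights. It was 5 without the 50 most abundant genes. With no UMI minimum, 2 were higher and 1 lower in middle clusters instead of 0, and 4 instead of 2 were higher in round spermatids. Median-of-ratios scaling gave 1 lower in middle clusters, 2 instead of 1 lower in late clusters and 2 lower in round spermatids. Leaving the 50 most abundant genes out of the total, or giving each cluster the same weight, also gave 1 lower in middle clusters. With the mean of per-cell CPM, 0 were lower in late clusters. In round spermatids 1 was lower with the top 10% of doublet scores removed, 3 with free RNA subtracted, and 2 in the earliest 2 round clusters alone, a setting chosen after seeing the data. The Tex12 ratio in round spermatids was 1.02 with doublets kept and 1.96 with free RNA subtracted, against 1.37, and that of Rnf212 was 0.96 in the earliest 2 clusters, against 0.71. Thinned to 2000 UMIs instead of 5000, Sycp3 was seen in 85.2% of control and 87.9% of cKO cells of cluster 3, instead of 97.7% and 98.6%. Equal cluster weights could not be fitted to round spermatids, whose clusters are almost wholly of 1 library each. Depth limits Mei4, Rad21l, Tex11 and Spata22 in late stages.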

Other observations

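Barcodes low in RNA were kept out of the comparisons, and UMIs of the 29 genes were counted in them too. The low-RNA cluster with pachytene markers (970 control and 1171 cKO barcodes, median 1392 UMIs) had 0.273% and 0.275% of its UMIs from the 29 genes, against 0.491% and 0.476% in the middle clusters used above. A low-RNA cluster with spermatogonium markers (145 and 163 barcodes) had 0.180% and 0.186%, against 0.278% and 0.310% in the spermatogonium-like cluster. In both, the 2 libraries differed by less than the low-RNA clusters differed from their counterparts. Free RNA was estimated at 1028 and 910 UMIs per cell, close to the median depth of these barcodes (1392 and 947.5 UMIs), and its part in their member UMIs was not tested.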
